A study of Homo sapiens with 12 samples.

Results

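Messenger RNA of 10 genes was followed: the E2F transcription factors E2F1, E2F2, E2F3, E2F4, E2F7 and E2F8, the transcription factors FOXM1 and MYBL2, and the pocket proteins RBL1 (p107) and RBL2 (p130). They were taken by symbol from a count table of 25343 genes, and all 10 were among the 14199 genes with enough counts to be tested. The libraries came from 2 cancer lines that express Cas9, the colorectal line SW48 and the ovarian line OVK18. Each line carried 1 of 3 guide RNAs: sgWRN2 or sgWRN3, which target the DNA helicase gene WRN, or the control guide sgCh2-2, which targets an intergenic site on chromosome 2. Cells were harvested 72 h after transduction, and each of the 6 groups had 2 libraries, A and B. Nothing states that A and B came from separate cultures, so p-values measure the spread between these libraries, which may be technical. The control cells carry Cas9 and a guide too.

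E2F factors bind DNA with a DP partner and control genes needed to enter and complete DNA replication. E2F1, E2F2 and E2F3 mostly activate such genes, E2F7 and E2F8 repress them without a DP partner or a pocket protein, and E2F4 mostly represses them together with RBL1 or RBL2. In resting or arrested cells, E2F4, DP and RBL2 or RBL1 join the MuvB core to form the DREAM complex, which holds cell cycle genes down. In cycling cells MuvB instead binds the MYBL2 protein (B-MYB) and then FOXM1, and the genes of mitosis are switched on. The inhibitor p21, encoded by the p53 target CDKN1A, keeps pocket proteins unphosphorylated and so favours repression. Several of these genes are themselves E2F or DREAM targets.

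Promoter stretches are shown for the activators, MYBL2 and RBL1, because the E2F genes and RBL1 are known to be controlled by E2F through their own promoters. Each holds the 80 bases before an annotated start (RefSeq, GRCh38.p14), read 5′ to 3′ on the gene's strand. Capitals mark exact matches on either strand to the E2F motif (TTTCCCGC, TTTCGCGC, TTTGCCGC or TTTGGCGC), to the CHR element bound by MuvB (TTTGAA or TTTAAA) or to the CCAAT box (CCAAT).
E2F1, chr20:33686386-33686465, minus strand: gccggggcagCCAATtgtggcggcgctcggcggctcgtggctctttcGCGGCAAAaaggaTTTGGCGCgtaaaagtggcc
E2F2, chr1:23531234-23531313, minus strand: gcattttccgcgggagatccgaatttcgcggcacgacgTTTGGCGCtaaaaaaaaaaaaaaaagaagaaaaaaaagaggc
E2F3, upstream start, chr6:20401799-20401878, plus strand: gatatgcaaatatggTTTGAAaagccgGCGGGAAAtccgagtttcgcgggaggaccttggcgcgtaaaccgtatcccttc
RBL1, chr20:37095998-37096077, minus strand: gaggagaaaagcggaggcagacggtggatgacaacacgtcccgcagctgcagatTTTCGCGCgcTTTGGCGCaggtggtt
MYBL2, chr20:43667034-43667113, plus strand: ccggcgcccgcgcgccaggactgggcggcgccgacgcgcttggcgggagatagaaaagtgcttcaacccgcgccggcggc

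RefSeq promoter windows of 300 bases, from 250 before to 50 after the start, were at hand for 8 of the 10 genes, with 2 starts each for E2F3 and RBL2. An E2F motif stood in the windows of 4 of these 8 genes, E2F1, E2F2, E2F3 and RBL1, and in 3.31% of all 35116 windows of the table. Of the E2F3 windows only that of the upstream start held it. Shares here are per window, and the 8 genes had 10 windows, so counts of genes and these shares are not like for like. In E2F1 the matches lay at positions -33 to -26 and -20 to -13 from the start, and in RBL1 at -26 to -19 and -16 to -9. The single matches of E2F2 and of the upstream E2F3 start lay at -42 to -35 and -53 to -46. A CHR match occurred in the E2F3 and RBL2 windows and in 24.0% of all windows, and a CCAAT match in E2F1, E2F3, E2F7 and RBL2 and in 34.6% of all windows. The windows of MYBL2 and E2F4 held no exact match to these motifs. No window was at hand for FOXM1 or E2F8. A match is a description of letters and not of a bound site, and the lack of an exact match does not show that no site is there.

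**Figure D1:**
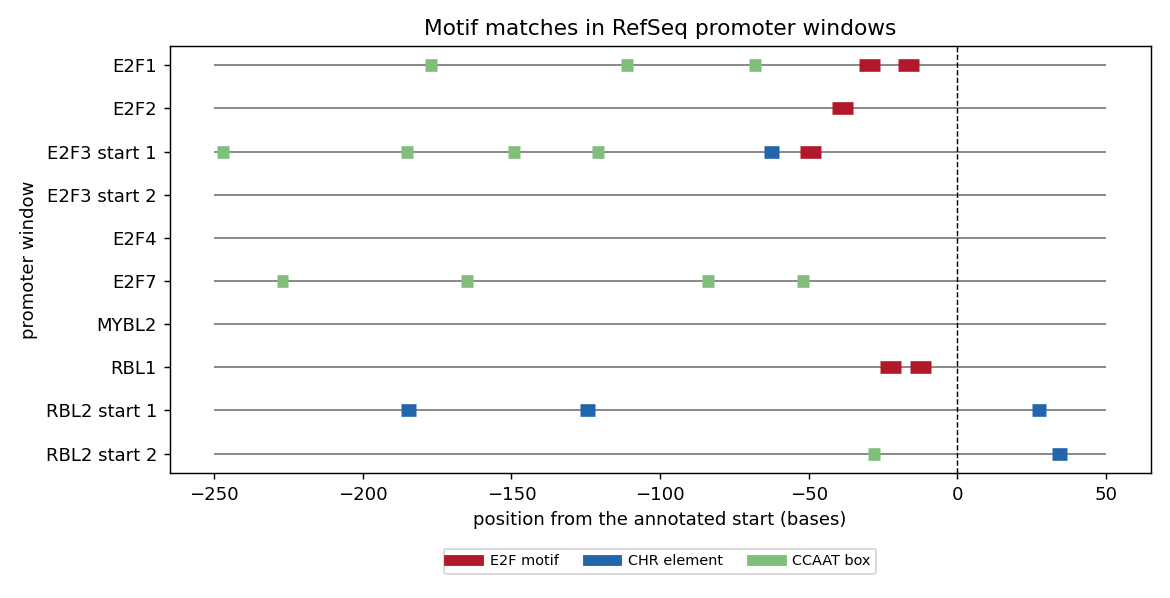
Positions of exact motif matches in the RefSeq promoter windows of 8 genes, with the distance from the annotated start in bases on the x axis and 1 line per window. The E2F motif matches of E2F1, E2F2, E2F3 and RBL1 all lay within 53 bases before the start.

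Total counts per library ran from 15423162 to 32581625. WRN transcript, the check of the guides, averaged 35.6 ± 2.19 CPM (counts scaled to TMM-normalised library size; SD, n = 2) with sgWRN2, 49.6 ± 10.3 with sgWRN3 and 101 ± 14.4 with sgCh2-2 in SW48, and 21.5 ± 0.724, 22.6 ± 0.564 and 35.9 ± 5.50 CPM in OVK18. The lines were checked against markers: EPCAM, an epithelial adhesion protein, lay between 562 and 682 CPM in SW48, where the intestinal factor CDX2 lay between 68.0 and 104 CPM. CDX1, another intestinal factor, was at 0 and KRT20, a keratin of mature gut cells, at most at 0.255 CPM. Of 7 ovarian and Mullerian markers, which summed to 74.3 to 81.6 CPM in OVK18, HOXA10 lay between 29.5 and 36.2 CPM, HOXA11 between 37.6 and 45.8 and WT1 between 0.653 and 1.05 CPM there. WFDC2 was at 0, and PAX8, MUC16 and MSLN were at most at 0.0929 CPM there. Of 6 fibroblast markers in OVK18, the fibrillar collagen COL3A1 lay between 383 and 455 CPM and PDGFRA between 21.2 and 24.3 CPM. The others, COL1A1, COL1A2, PDGFRB and DCN, were at most at 1.52, 2.74, 0.350 and 0.402 CPM. In SW48 the 7 ovarian and Mullerian markers summed to 103 to 119 CPM, more than in OVK18. HOXA10, MSLN, PAX8 and WFDC2 were higher in SW48, at 40.3 to 59.9, 34.4 to 48.0, 3.94 to 6.21 and 0.320 to 0.787 CPM. HOXA11 and WT1 were lower there, at 14.4 to 18.1 and at most 0.0638 CPM. The 6 leukocyte and endothelial markers summed to 12.6 to 13.9 CPM with sgWRN2, 10.5 to 11.2 with sgWRN3 and 10.4 to 10.9 with sgCh2-2 in SW48, and to 4.19 to 6.58 CPM over the OVK18 libraries. CD68 made up most of these sums, with 7.37 to 10.1 CPM in SW48, where PTPRC lay between 2.27 and 4.18 CPM, and CD3E and PECAM1 were at 0 in all 12 libraries. The part of these markers in the results was not tested. Over 14199 genes the log2 difference of library A from B had r = 0.413 between sgWRN3 and sgCh2-2 in SW48 and 0.390 in OVK18. The sgWRN2 libraries stood apart: their A to B difference had r = -0.0890 with that of sgCh2-2 in SW48 and -0.105 in OVK18.

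The levels of the 10 genes were set against each other in the control libraries, in FPKM, in which fragment counts are scaled to transcript length and sequencing depth. In SW48 FOXM1 stood at the top with 27.6 ± 3.31 FPKM (SD, n = 2 here and below), followed by E2F4 with 21.1 ± 3.90 and RBL2 with 20.7 ± 2.46 FPKM. E2F3 had 10.9 ± 0.146 FPKM, and E2F1 and MYBL2 had 7.72 ± 0.842 and 7.68 ± 0.996 FPKM. E2F8 had 6.19 ± 0.101, E2F7 had 6.01 ± 0.578, RBL1 had 5.38 ± 0.134 and E2F2 had 3.91 ± 0.236 FPKM. The library values of E2F4 and RBL2, of E2F1 and MYBL2, and of E2F8 and E2F7 overlapped, so those neighbours were not separated by their spread.

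In OVK18 the order began with E2F3 at 20.7 ± 0.549 FPKM and RBL2 at 17.9 ± 1.002 FPKM. FOXM1 had 13.3 ± 1.82 FPKM and E2F4 had 13.01 ± 1.37 FPKM, and these overlapped. MYBL2 had 8.77 ± 1.55, RBL1 had 6.31 ± 0.0325, and E2F2 and E2F1, which overlapped, had 4.96 ± 0.562 and 4.36 ± 0.635 FPKM. The repressors E2F8 and E2F7 stood lowest in OVK18, at 2.62 ± 0.0725 and 1.95 ± 0.240 FPKM.

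**Figure D2:**
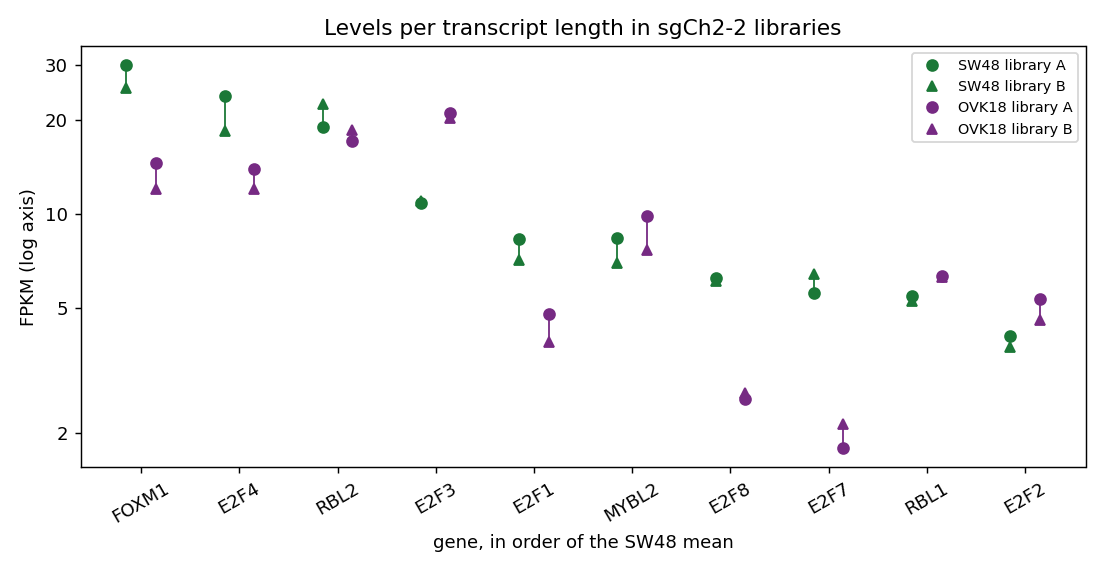
Levels of the 10 genes in the sgCh2-2 libraries in FPKM on a log axis, with 1 point per library, lines joining libraries A and B, SW48 in green and OVK18 in purple. FOXM1 was highest in SW48 at 27.6 FPKM and E2F3 highest in OVK18 at 20.7 FPKM, and E2F7 and E2F8 were lowest in OVK18.

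Of the 10 genes, 5 were higher and 2 lower in SW48 than in OVK18 control libraries at an adjusted p under 0.05 in edgeR's quasi-likelihood test (Benjamini-Hochberg over all 14199 genes). Of all genes tested, 33.9% were higher and 34.7% lower, so such a difference was common. E2F7 stood at 39.8 and 47.3 CPM in the SW48 controls, against 12.7 and 15.9 CPM in those of OVK18, and was 3.03-fold higher (log2 difference 1.60, SE 0.144, adjusted p = 7.12e-07). E2F8 was 2.26-fold higher (1.18, SE 0.128, adjusted p = 4.22e-06) and FOXM1 2.05-fold (1.03, SE 0.122, adjusted p = 8.91e-06). Both atypical repressors and FOXM1 were thus higher in SW48, with no overlap of the libraries. The SW48 controls lay wholly higher for 41.6% and wholly lower for 42.6% of all genes, so such separation was common. E2F1 was higher by 0.80 (SE 0.179, adjusted p = 0.00159) and E2F4 by 0.65 (SE 0.156, adjusted p = 0.00276) in log2 units. E2F3 stood at 61.7 and 64.9 CPM in the SW48 controls, against 118 and 118 CPM in those of OVK18 (log2 difference -0.90, SE 0.0957, adjusted p = 3.30e-06). E2F2 was lower in SW48 by a smaller step (-0.37, SE 0.122, adjusted p = 0.0180), a call lost without SW48 sgCh2-2 A (-0.40), SW48 sgCh2-2 B (-0.35) or OVK18 sgCh2-2 A (-0.29). MYBL2, RBL1 and RBL2 had log2 differences of -0.28, -0.18 and 0.17 and did not pass.

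The WRN guides were then compared with the control guide in SW48, which asks how these regulators stood once WRN had been targeted. Over both guides, E2F2, E2F8 and FOXM1 fell, 3 of the 10 genes, against 0.613% of all genes tested that fell. All 10 log2 differences lay below 0, with a median of -0.35, while 46.8% of all genes lay below 0 and their median was 0.00379. For 4 of the 10 genes both sgWRN2 and both sgWRN3 libraries lay under the lower control: E2F2, E2F8, FOXM1 and RBL1. The same held for 5.33% of all genes. In bulk RNA, fewer cells with a transcript and less of it per cell cannot be told apart.

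Of the activators, E2F2 had 12.2 and 14.0 CPM with sgWRN2 and 21.3 and 19.96 CPM with sgWRN3, against 26.0 and 25.0 CPM with sgCh2-2. Its libraries fell into 3 separate steps, lowest with sgWRN2. E2F2 fell by 0.64 in log2 units over both guides (SE 0.108, adjusted p = 0.0179), lower in 4 of 4 WRN-guide libraries. E2F1, the activator most often used as the family's model, had 15.4 and 19.4 CPM with sgWRN2 and 24.2 and 22.01 CPM with sgWRN3, against 26.3 and 23.8 CPM with sgCh2-2. Its sgWRN2 libraries lay lowest and its sgWRN3 libraries overlapped the controls, and the log2 difference of -0.32 (SE 0.153, adjusted p = 0.665) did not pass. E2F3, which has an upstream and a downstream start, had 63.8 and 58.4 CPM with sgWRN2 and 58.0 and 55.2 CPM with sgWRN3, against 61.7 and 64.9 CPM with sgCh2-2. The E2F3 groups with sgWRN2 and sgCh2-2 overlapped (log2 difference over both guides -0.11, SE 0.0833, adjusted p = 0.909).

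The atypical repressors E2F7 and E2F8, which can stand in for each other in mouse embryos, are given next. E2F8 had 13.9 and 12.5 CPM with sgWRN2 and 21.8 and 24.0 CPM with sgWRN3, against 27.6 and 27.8 CPM with sgCh2-2. E2F8 fell by 0.67 in log2 units (SE 0.108, adjusted p = 0.0156), again in 3 steps without overlap. E2F7 had 39.0 and 34.8 CPM with sgWRN2 and 40.9 and 44.7 CPM with sgWRN3, against 39.8 and 47.3 CPM with sgCh2-2. Its sgWRN3 libraries lay between the controls, and the difference of -0.13 (SE 0.120, adjusted p = 0.962) did not pass. The difference between the E2F7 and E2F8 responses was not tested.

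FOXM1, the activator of genes of the G2 phase and mitosis, had 60.5 and 60.9 CPM with sgWRN2 and 107 and 95.5 CPM with sgWRN3, against 128 and 114 CPM with sgCh2-2. FOXM1 fell by 0.62 in log2 units (SE 0.103, adjusted p = 0.0168), and each of its 4 WRN-guide libraries lay below both controls. MYBL2, the MYB protein that joins MuvB in S phase, had 12.6 and 15.8 CPM with sgWRN2 and 25.6 and 19.2 CPM with sgWRN3, against 28.0 and 24.9 CPM with sgCh2-2. The sgWRN2 libraries of MYBL2 were lowest, but sgWRN3 library A lay above control library B, and the difference of -0.57 (SE 0.159, adjusted p = 0.178) did not pass.

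Of the pocket proteins and their main E2F partner, RBL1 had 22.4 and 22.9 CPM with sgWRN2 and 31.0 and 32.1 CPM with sgWRN3, against 33.2 and 36.5 CPM with sgCh2-2. The RBL1 groups did not overlap, yet its log2 difference of -0.38 (SE 0.111, adjusted p = 0.212) did not pass over all genes. RBL2 had 104 and 118 CPM with sgWRN2 and 115 and 155 CPM with sgWRN3, against 116 and 144 CPM with sgCh2-2. E2F4 had 45.9 and 53.6 CPM with sgWRN2 and 57.3 and 48.2 CPM with sgWRN3, against 59.1 and 48.0 CPM with sgCh2-2. The groups of RBL2 and E2F4, the pocket protein and E2F of resting cells, overlapped, with log2 differences of -0.09 (SE 0.128) and -0.07 (SE 0.135) and adjusted p = 1 for each.

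The 3 calls over both guides in SW48 rested on single libraries. They were also lost with a replicate block on the letters A and B, which may not match how the libraries were made. Without SW48 sgCh2-2 A none of the 10 passed, with log2 differences of -0.62 for E2F2, -0.69 for E2F8 and -0.55 for FOXM1, and without SW48 sgCh2-2 B none passed either, with -0.67, -0.68 and -0.72 for the same genes. Without SW48 sgWRN2 A only E2F8 passed, without SW48 sgWRN2 B only E2F2, and without SW48 sgWRN3 A E2F8 was lost with a difference of -0.65.

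**Figure D3:**
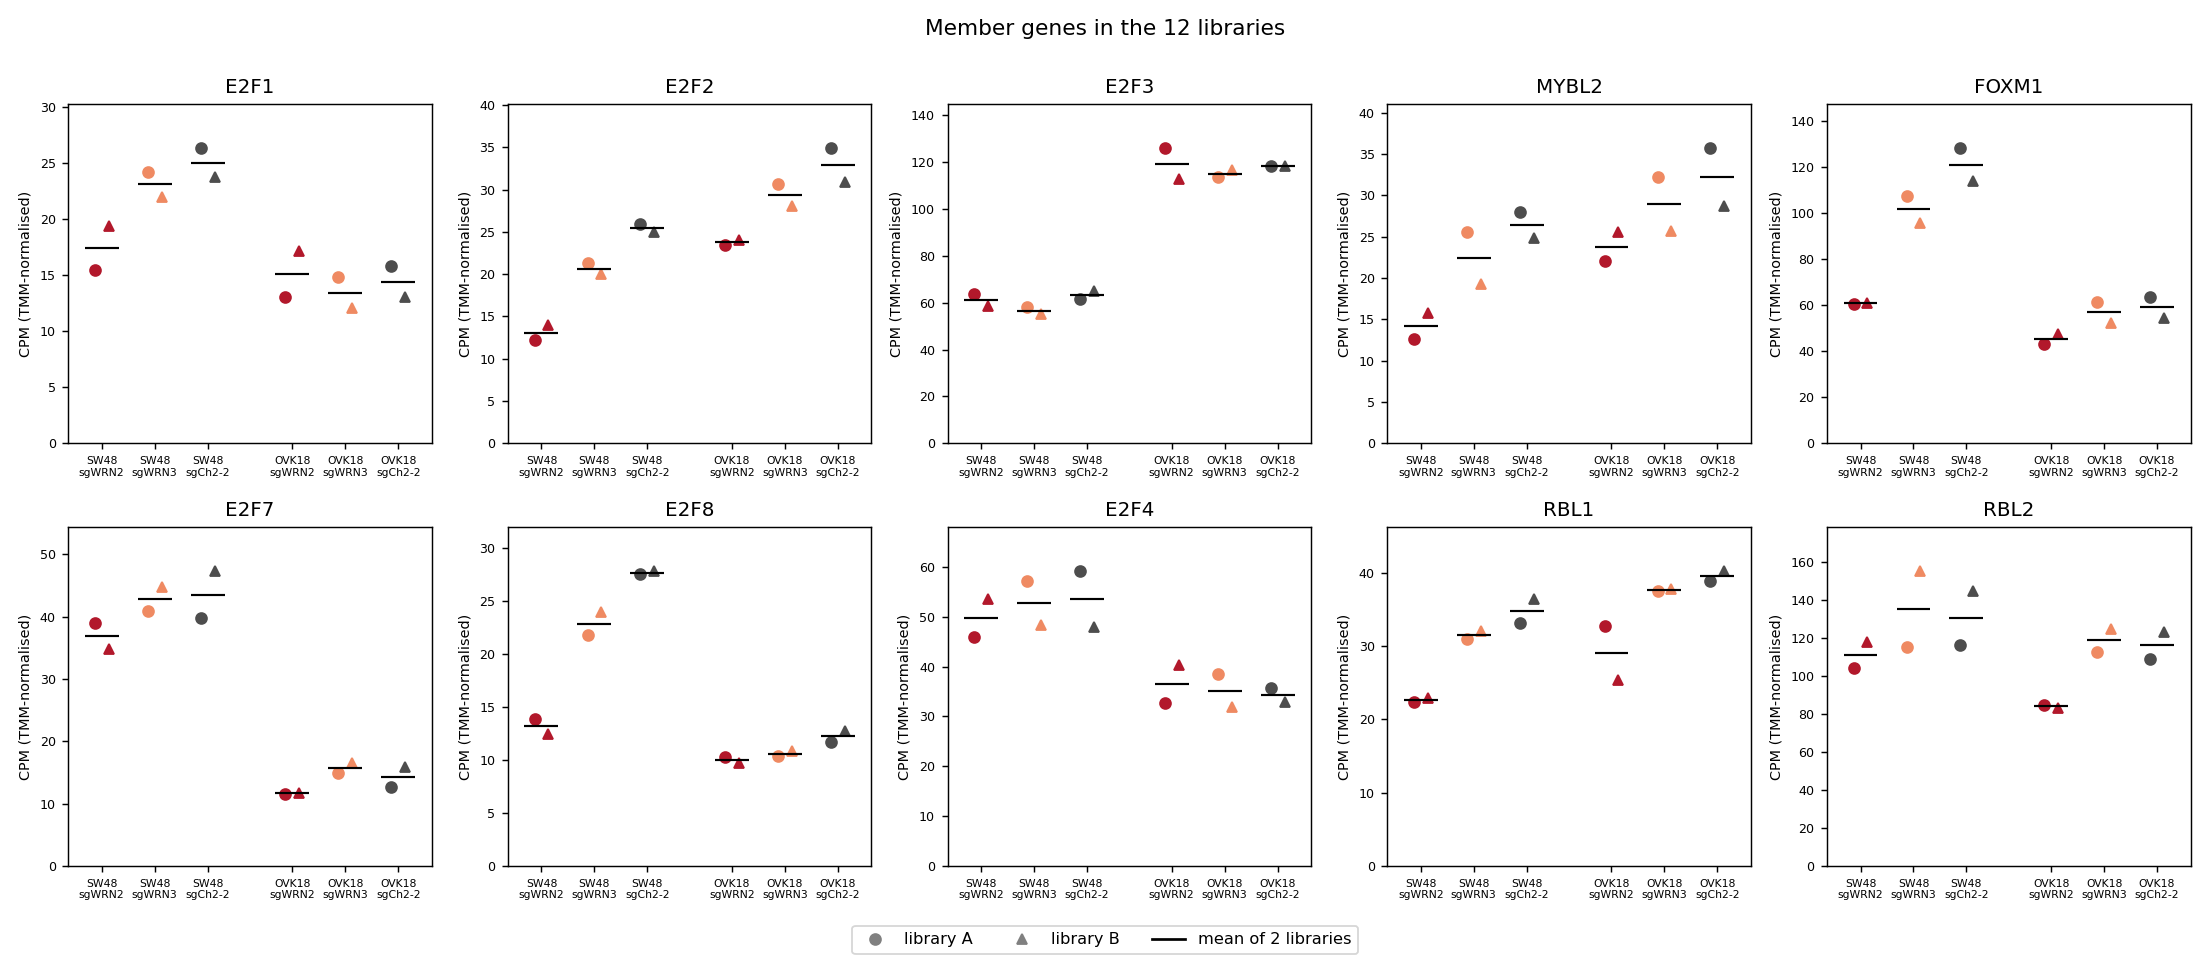
TMM-normalised CPM of each of the 10 genes in the 12 libraries, with circles for library A, triangles for library B and a bar at the mean of the 2 libraries, sgWRN2 left of sgWRN3 and sgCh2-2 in each line. In SW48 the sgWRN2 libraries of E2F2, E2F8, FOXM1, MYBL2 and RBL1 lie well below the sgCh2-2 libraries and the sgWRN3 libraries lie nearer to them.

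With sgWRN2 alone, 5 of the 10 genes fell in SW48, beside 1.95% of all genes tested. With the replicate block 3 of the 10 passed. E2F8 stood at 0.476 of its control level (log2 difference -1.07, SE 0.131, adjusted p = 0.000903), FOXM1 at 0.502 (-0.99, SE 0.123, adjusted p = 0.000978) and E2F2 at 0.512 (-0.97, SE 0.130, adjusted p = 0.00172). MYBL2 stood at 0.536 (-0.90, SE 0.191, adjusted p = 0.0244) and RBL1 at 0.651 (-0.62, SE 0.131, adjusted p = 0.0244). E2F1 had a difference of -0.53 (SE 0.181, adjusted p = 0.191), and the other 4 lay between -0.24 for E2F7 and -0.05 for E2F3 and did not pass. Both sgWRN2 libraries lay below both controls for 7 of 10 genes, those 5 with E2F1 and E2F7, and for 17.2% of all genes. E2F2, E2F8 and FOXM1 passed without any single library, and 3 of 10 passed without SW48 sgWRN2 A, SW48 sgWRN2 B or SW48 sgCh2-2 B. MYBL2 had -0.75, -1.08 and -1.01 without each of those libraries and -0.84 without SW48 sgCh2-2 A, where it was lost as well, and RBL1 had -0.60, -0.65 and -0.58.

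With sgWRN3 alone in SW48, 0 of the 10 genes and 0% of all genes passed in edgeR. The targeted transcript, WRN, did not pass in edgeR either (log2 difference -1.03, SE 0.159, adjusted p = 0.438). The lack of calls therefore does not show that this guide left the 10 genes unchanged. At an unadjusted p under 0.05 there were 262 genes, 1 of them among the 10, and DESeq2 called 9 genes and none of the 10. The log2 differences were -0.31 for E2F2, -0.28 for E2F8, -0.25 for FOXM1, -0.24 for MYBL2 and -0.14 for RBL1. Both sgWRN3 libraries lay below both controls for 5 of 10 genes, E2F2, E2F3, E2F8, FOXM1 and RBL1, and for 10.6% of all genes.

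The 2 guides were also compared in SW48. Set against sgWRN3, sgWRN2 gave lower E2F8 (log2 difference -0.80, SE 0.133, adjusted p = 0.0168), FOXM1 (-0.74, SE 0.124, adjusted p = 0.0168) and E2F2 (-0.66, SE 0.132, adjusted p = 0.0381), 3 of 10 genes against 0.655% of all genes. All 3 calls were lost with the replicate block. MYBL2 at -0.66 (SE 0.194, adjusted p = 0.200), RBL1 at -0.48 (SE 0.133, adjusted p = 0.173) and E2F1 at -0.41 (SE 0.183, adjusted p = 0.556) did not pass. Both sgWRN2 libraries lay below both sgWRN3 libraries for 7 of 10 genes and for 13.9% of all genes. None of the 10 passed without SW48 sgWRN2 A, SW48 sgWRN2 B or SW48 sgWRN3 B, and only E2F8 without SW48 sgWRN3 A, where the 3 genes had differences between -0.87 and -0.56. E2F2 was also lost without any 1 of the 4 OVK18 sgWRN3 and sgCh2-2 libraries, at -0.70 to -0.67.

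**Figure D4:**
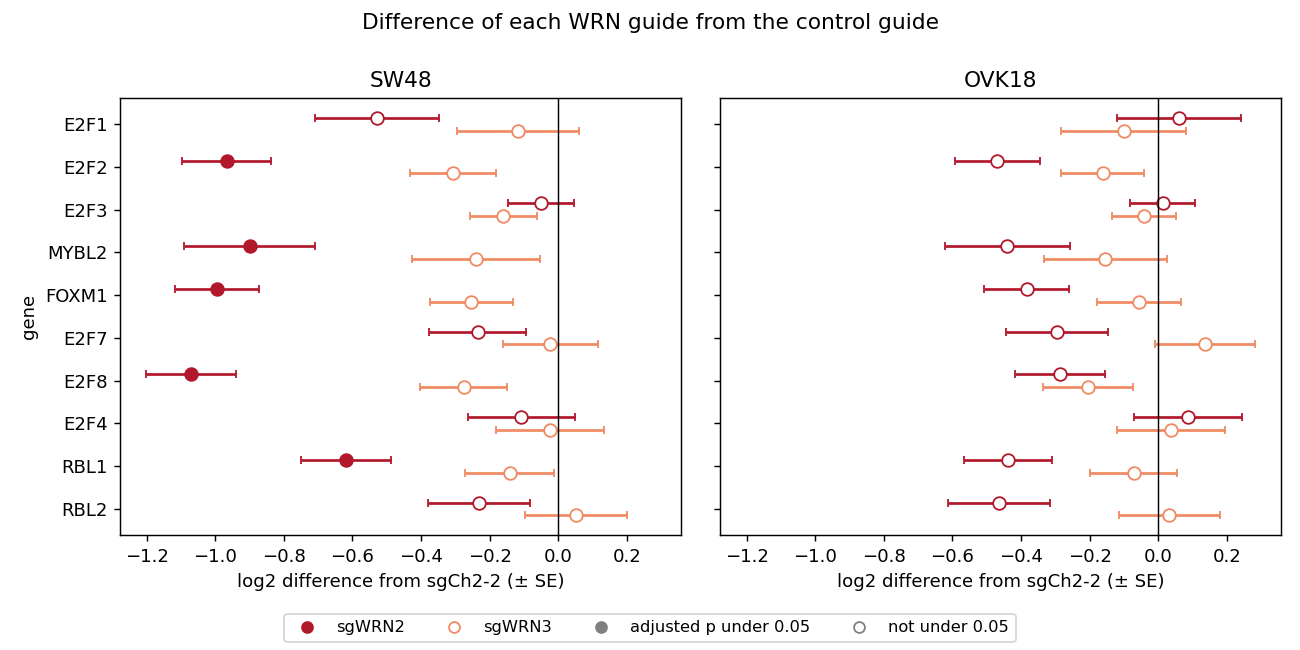
Log2 difference of each WRN guide from sgCh2-2 with its SE, from the edgeR fit, for the 10 genes in SW48 and OVK18, with filled points where the adjusted p was under 0.05. E2F2, MYBL2, FOXM1, E2F8 and RBL1 with sgWRN2 in SW48 are the 5 filled points.

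In OVK18 none of the 10 genes passed over both guides in edgeR, where 0.00704% of all genes were called lower. At an unadjusted p under 0.05 there were 573 genes, 3 of them among the 10, and DESeq2 called none of the 10. The median difference of the 10 genes was -0.22, against 0 over all genes, and 9 of 10 lay below 0, beside 49.8% of all genes. All 4 WRN-guide libraries lay below both controls for 3 of 10 genes, E2F2, E2F8 and RBL1, and for 3.84% of all genes. Over both guides the WRN transcript itself did not pass in OVK18 in edgeR (log2 difference -0.71, SE 0.136, adjusted p = 0.206). Nor did it pass with sgWRN2 alone (-0.74, SE 0.162, adjusted p = 0.0658) or with sgWRN3 alone (-0.67, SE 0.161).

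E2F2 had 23.5 and 24.1 CPM with sgWRN2 and 30.7 and 28.1 CPM with sgWRN3 in OVK18, against 34.9 and 30.9 CPM with sgCh2-2. Its groups did not overlap and were lowest with sgWRN2, with a log2 difference over both guides of -0.32 (SE 0.104, adjusted p = 1). E2F8 had 10.3 and 9.75 CPM with sgWRN2 and 10.4 and 10.8 CPM with sgWRN3, against 11.7 and 12.8 CPM with sgCh2-2 (-0.25, SE 0.113, adjusted p = 1). FOXM1 had 43.0 and 47.5 CPM with sgWRN2 and 61.2 and 52.3 CPM with sgWRN3, against 63.6 and 54.4 CPM with sgCh2-2 (-0.22, SE 0.105, adjusted p = 1). E2F8 did not overlap the controls with either guide, while FOXM1 lay below them with sgWRN2 and overlapped them with sgWRN3.

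MYBL2 had 22.01 and 25.5 CPM with sgWRN2 and 32.2 and 25.7 CPM with sgWRN3 in OVK18, against 35.7 and 28.7 CPM with sgCh2-2. RBL1 had 32.7 and 25.4 CPM with sgWRN2 and 37.5 and 37.7 CPM with sgWRN3, against 38.8 and 40.2 CPM with sgCh2-2. RBL2 had 84.9 and 83.4 CPM with sgWRN2 and 113 and 125 CPM with sgWRN3, against 109 and 123 CPM with sgCh2-2. The RBL2 libraries with sgWRN2 lay below all others of this line, and those with sgWRN3 overlapped the controls.

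E2F7 had 11.6 and 11.7 CPM with sgWRN2 and 14.9 and 16.5 CPM with sgWRN3 in OVK18, against 12.7 and 15.9 CPM with sgCh2-2. E2F1 had 13.04 and 17.2 CPM with sgWRN2 and 14.8 and 12.1 CPM with sgWRN3, against 15.8 and 13.03 CPM with sgCh2-2. E2F3 lay between 113 and 126 CPM and E2F4 between 31.97 and 40.2 CPM over all 6 OVK18 libraries. E2F1 and E2F4 overlapped between all guides, and the E2F3 libraries with sgWRN3 lay below both controls while those with sgWRN2 lay on either side of them. Their differences over both guides were -0.02 for E2F1, -0.01 for E2F3 and 0.06 for E2F4.

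With sgWRN2 alone in OVK18, none of the 10 genes passed in edgeR, where 0.261% of all genes fell. An unadjusted p under 0.05 was found for 1974 of all 14199 genes, 5 of them among the 10. DESeq2 called 1 of the 10, E2F2, but its share over all genes is not given here, so this count cannot be weighed. The largest differences were -0.47 for E2F2 (SE 0.123, adjusted p = 0.114), -0.46 for RBL2 (SE 0.148, adjusted p = 0.189), -0.44 for MYBL2 (SE 0.182, adjusted p = 0.305), -0.44 for RBL1 (SE 0.128, adjusted p = 0.1503) and -0.38 for FOXM1 (SE 0.123, adjusted p = 0.190). Both libraries lay below both controls for 7 of 10 genes, E2F2, E2F7, E2F8, FOXM1, MYBL2, RBL1 and RBL2, which is to be read beside 21.4% of all genes. With sgWRN3 alone, 0 of the 10 and 0% of all genes passed in edgeR. At an unadjusted p under 0.05 there were 116 genes and none of the 10, and DESeq2 called 1 gene, not one of the 10. Both sgWRN3 libraries lay below both controls for 4 of 10 genes, E2F2, E2F3, E2F8 and RBL1, beside 10.5% of all genes. Between the guides, sgWRN2 against sgWRN3, none of the 10 passed in edgeR or in DESeq2, and 0.31% of all genes were lower in edgeR. Of all 14199 genes, 2059 had an unadjusted p under 0.05, 5 of them among the 10. RBL2 at -0.50 (SE 0.149, adjusted p = 0.152) and E2F7 at -0.43 (SE 0.149, adjusted p = 0.210) had the largest differences, and both libraries were lower for 7 of 10 genes and for 21.7% of all genes.

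Whether the WRN-guide effect differed between the lines was tested as the SW48 effect minus the OVK18 effect. None of the 10 genes passed in edgeR or DESeq2, and 0.0282% of all genes passed in edgeR. An unadjusted p under 0.05 was found for 391 of all 14199 genes, 2 of them among the 10. The differences of the effects were -0.43 for E2F8 (SE 0.158), -0.40 for FOXM1 (SE 0.149), -0.32 for E2F2 (SE 0.152), -0.27 for MYBL2 (SE 0.224) and -0.13 for RBL1 (SE 0.157), each with adjusted p = 1. A difference between the lines was therefore not shown for any of the 10.

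The A and B libraries differed by guide in some of these genes. With sgCh2-2 and with sgWRN3, library A lay above B in both lines for E2F1, E2F2, E2F4, FOXM1 and MYBL2, and with sgWRN2 library B lay above A in both lines for all 5. These 5 were picked by this pattern, and the share of all genes that show it was not counted. MYBL2 had log2 A to B differences of -0.32 with sgWRN2, 0.41 with sgWRN3 and 0.17 with sgCh2-2 in SW48, and of -0.21, 0.32 and 0.31 in OVK18. E2F4 had -0.22, 0.25 and 0.30 in SW48 and -0.30, 0.26 and 0.12 in OVK18. RBL2 ran the other way with sgWRN3 and sgCh2-2, where B lay above A in both lines. These differences are of the size of many guide differences above, and the part of this pattern in the guide differences was not tested.

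Genes that work with these factors were described next, from lists of related genes. Of the E2F partners and RB1, 5 of 6 were tested and none passed in SW48 over both guides (median -0.10). TFDP1 and TFDP2, the DP partners, had log2 differences of -0.20 and -0.10, the repressor E2F6 -0.15 and E2F5, a repressor close to E2F4, 0.11. Of 7 genes of the MuvB core and the MYB family, none passed in SW48 or OVK18 over both guides, with medians of -0.26 and -0.23. In SW48 MYB had -0.41, LIN9, a scaffold of the core, -0.32, LIN54, its subunit that contacts the CHR element, -0.30, and LIN52, its link to RBL2 and MYBL2, -0.23.

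Upstream of the pocket proteins, cyclin D and E kinases phosphorylate them and CDK inhibitors block those kinases. Of 9 genes for these cyclins, kinases and their activator, 1 rose in SW48 over both guides, beside 0.254% of all genes: CCND1, cyclin D1, with 933 ± 27.4 CPM with sgWRN2, 748 ± 64.6 with sgWRN3 and 624 ± 25.4 with sgCh2-2 (log2 difference 0.42, SE 0.0810, adjusted p = 0.0355). The CCND1 call was lost without any 1 SW48 library other than sgWRN3 B, at 0.36 to 0.45, and without any 1 OVK18 sgWRN3 or sgCh2-2 library, at 0.41. CDK2, the partner of cyclin E, had 49.6 ± 0.128 CPM with sgWRN2, 73.4 ± 2.82 with sgWRN3 and 80.1 ± 1.28 with sgCh2-2. CDK2 did not pass over both guides (-0.41, SE 0.0885, adjusted p = 0.0588) and fell with sgWRN2 alone (-0.69, SE 0.105, adjusted p = 0.00311). CCNE2, cyclin E2, and CDC25A, the phosphatase that activates CDK2, had -0.60 and -0.30 over both guides and did not pass. Of 7 CDK inhibitors, CDKN1A rose and CDKN2C, an inhibitor of CDK4 and CDK6, fell (-0.67, SE 0.135, adjusted p = 0.0443), 1 each beside 0.254% of all genes that rose and 0.613% that fell. The CDKN2C call was lost without any 1 SW48 library, at -0.76 to -0.60, and without any 1 OVK18 sgWRN3 or sgCh2-2 library, at -0.69 to -0.68. CDKN1A (p21) had 945 and 1008 CPM with sgWRN2 and 655 and 519 CPM with sgWRN3, against 412 and 326 CPM with sgCh2-2 (log2 difference 1.04, SE 0.124, adjusted p = 0.00507), a call lost without SW48 sgCh2-2 B (0.87). CDKN1B (p27) and CDKN1C (p57) had -0.26 and -0.65 and did not pass. CDKN1C was near the floor, with counts of 5 to 23 in the SW48 libraries (SE 0.330). In SW48 every WRN-guide library had more CDKN1A and less E2F2, E2F8 and FOXM1 than both controls. With sgWRN3 in OVK18, E2F2 and E2F8 lay below both controls, while FOXM1 and CDKN1A overlapped them. A link between CDKN1A and these genes was not tested.

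In OVK18 CDKN1A had 253 and 295 CPM with sgWRN2 and 187 and 172 CPM with sgWRN3, against 179 and 173 CPM with sgCh2-2. Only its sgWRN2 libraries stood apart there, and the difference over both guides, 0.33 (SE 0.121, adjusted p = 1), did not pass. Of 20 p53-activated genes, a list that shares CDKN1A, 6 rose in SW48 over both guides, beside 0.254% of all genes, with a median of 0.41. None rose in OVK18 in edgeR, beside 0.0211% of all genes, or in DESeq2, and the median was 0.14. In edgeR 3 of the 20 had an unadjusted p under 0.05 there, beside 573 of all 14199 genes. BTG2, an inhibitor of proliferation, rose by 0.63 (SE 0.0801, adjusted p = 0.00507), GDF15, a secreted stress factor, by 1.09 (SE 0.183, adjusted p = 0.0175) and MDM2, the p53 ubiquitin ligase, by 0.76 (SE 0.132, adjusted p = 0.0218) in SW48. With sgWRN2 alone in SW48, 10 of the 20 rose, beside 1.13% of all genes.

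Known targets of the factors were counted next. Of 25 E2F targets of S phase, 7 fell in SW48 over both guides, beside 0.613% of all genes (median -0.46, all genes 0.00379). With sgWRN2 alone 18 fell, beside 1.95% of all genes (median -0.71, all genes 0.0188). RRM2, the small subunit of ribonucleotide reductase, had 126 and 119 CPM with sgWRN2 and 206 and 220 CPM with sgWRN3, against 242 and 261 CPM with sgCh2-2, and fell by 0.64 in log2 units over both guides (SE 0.0925, adjusted p = 0.00938). GINS2, a part of the replicative helicase, fell by 0.61 (SE 0.0972, adjusted p = 0.0156) and MCM4, another part of it, by 0.43 (SE 0.0757, adjusted p = 0.0218).

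Of 25 targets of the MYB-MuvB complex and FOXM1 in mitosis, 16 fell over both guides in SW48 (median -0.64), beside 0.613% of all genes, and 24 with sgWRN2 alone (median -0.99), beside 1.95%. KIF20A, a kinesin of cytokinesis, had 22.8 and 22.8 CPM with sgWRN2 and 46.1 and 43.2 CPM with sgWRN3, against 55.7 and 55.2 CPM with sgCh2-2 (log2 difference -0.80, SE 0.0967, adjusted p = 0.00507). CCNB1, cyclin B1, had 89.7 and 81.6 CPM with sgWRN2 and 148 and 151 CPM with sgWRN3, against 183 and 193 CPM with sgCh2-2 (-0.73, SE 0.0840, adjusted p = 0.00507). AURKA, a kinase of the spindle poles, fell by 0.64 (SE 0.0796, adjusted p = 0.00507) and BIRC5, survivin, by 0.62 (SE 0.0823, adjusted p = 0.00609). With sgWRN3 alone in SW48 no gene of either list passed in edgeR or DESeq2, and the medians were -0.18 and -0.27. There 3 S phase and 9 mitosis targets had an unadjusted p under 0.05, beside 262 of all 14199 genes. Between the guides in SW48, 8 of the S phase and 16 of the mitosis targets were lower with sgWRN2 than with sgWRN3 at the threshold, beside 0.655% of all genes.

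The list counts over both guides in SW48 also rested on single libraries. The share of all genes called in each of these fits is not given beside the counts below. A loss of calls particular to these lists was therefore not shown. Without SW48 sgCh2-2 A the S phase, mitosis and p53-activated counts were 0, 1 and 1, without SW48 sgCh2-2 B 0, 0 and 0, without SW48 sgWRN2 A 1, 9 and 2, without SW48 sgWRN2 B 1, 6 and 3, without SW48 sgWRN3 A 3, 10 and 3, and without SW48 sgWRN3 B 4, 15 and 3. For sgWRN2 alone they were 9, 17 and 6 without SW48 sgWRN2 A, 7, 13 and 8 without SW48 sgWRN2 B, 16, 23 and 6 without SW48 sgCh2-2 A, and 13, 17 and 5 without SW48 sgCh2-2 B. For sgWRN2 against sgWRN3 the S phase and mitosis counts were 0 and 0 without SW48 sgWRN2 A or SW48 sgWRN2 B, 2 and 10 without SW48 sgWRN3 A, and 0 and 1 without SW48 sgWRN3 B.

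In OVK18 no target of S phase or mitosis passed over both guides in edgeR, and DESeq2 called 1 S phase target. The share of all genes that DESeq2 called is not given beside its counts in this paragraph. All 25 differences of each list lay below 0 (medians -0.21 and -0.20), beside 49.8% of all genes. These differences share the same libraries, so their signs are not separate observations. In edgeR 7 S phase and 8 mitosis targets had an unadjusted p under 0.05, beside 573 of all 14199 genes. With sgWRN2 alone, 2 S phase targets fell, beside 0.261% of all genes: CDC6, which loads the MCM helicase (-0.79), and MCM3, a part of that helicase (-0.45). These were named after their values were seen. No mitosis target passed there in edgeR (median -0.34), and DESeq2 called 2. In edgeR 17 of the 25 had an unadjusted p under 0.05, beside 1974 of all 14199 genes.

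**Figure D5:**
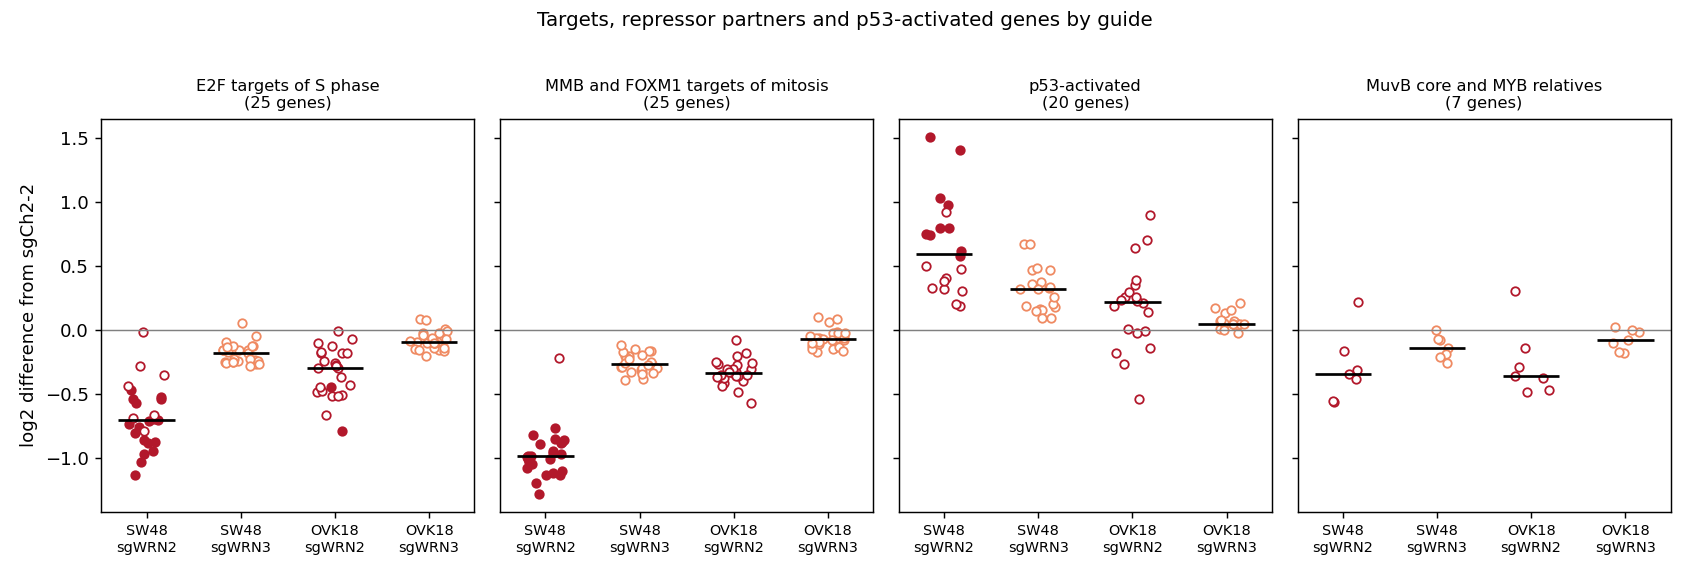
Log2 difference from sgCh2-2 of each gene of 4 lists by line and guide, with filled points where the edgeR adjusted p was under 0.05 and a bar at the median. With sgWRN2 in SW48 18 of 25 S phase targets, 24 of 25 mitosis targets and 10 of 20 p53-activated genes are filled, and no gene is filled with sgWRN3 in either line.

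The genes with the most similar course were sought by Pearson's r of log2 CPM over the 12 libraries, each line centred on its own mean, among 10986 genes. FOXM1 was closest to CDC20, an activator of the anaphase-promoting complex (0.992), TACC3, a spindle protein (0.990), and PLK1, a mitotic kinase (0.990). E2F8 was closest to GINS2 (0.989), WDR76 (0.986) and EXO1, an exonuclease of DNA repair (0.986), and E2F2 to TACC3 (0.988), TCF19 (0.987) and GTSE1 (0.984). MYBL2 was closest to ASF1B, a histone chaperone (0.979), and RBL1 to RABL3 (0.985) and HMGB2, a chromatin protein (0.981). The closest genes of the others were NR2C2AP for E2F1 (0.947), ANXA7 for E2F3 (0.955), MED24 for E2F4 (0.974), TRAF3IP2-AS1 for E2F7 (0.967) and GPATCH2L for RBL2 (0.979). The 12 points share guides, lines and the A to B differences, and these are the highest of many values, so they describe the course only.

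Some of these genes share bases of their spans, introns included, with a neighbour in RefSeq, and the strand setting of the counting is not given in the sources used here. FOXM1 shares 910 bases with RHNO1, which had a log2 difference of -0.19 in SW48 over both guides (adjusted p = 0.746), and 2112 bases with ITFG2, at 0.04. RBL2 shares 609 bases with AKTIP, at -0.11. The span of E2F8 overlaps that of CSRP3-AS1, which was not analysed here.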

How the data were processed

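RNA was measured in 12 libraries. The authors deposited whole-number counts per gene, made with bcl2fastq 2.18 and STAR 2.5 on hg19 per the submitters' processing notes, which also name Cufflinks 2.2.1. A second table the authors deposited holds non-integer values with no unit in its header and was read as FPKM. Counts divided by these values and by the library total implied a median length of 4.00 to 4.83 kb over the libraries, against 4.01 to 4.24 kb for the longest GENCODE v29 transcript of the same genes. Across genes that implied length had Spearman's rho of 0.796 to 0.816 with the longest transcript and 0.233 to 0.245 with the median transcript of a gene. Annotation and strand settings are not given in the sources used here. The 92 spike-in features were at 0 and were left out.

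Counts were fitted in R 4.3.3 with edgeR 4.0.16 (TMM, filterByExpr, 1 coefficient per group over all 12 libraries, robust quasi-likelihood test, Benjamini-Hochberg adjusted p under 0.05 over 14199 genes), which gives every adjusted p unless another tool is named. The SE was obtained by dividing the size of the log2 difference by the root of its F value. The effect over both guides sets the average of sgWRN2 and sgWRN3 against sgCh2-2, and comparisons within a line share control libraries. Alternatives were DESeq2 1.42.0, limma 3.58.1 on log2 FPKM with pseudocounts 1 and 0.1 (mean FPKM of at least 1), other normalisations and filters, a replicate block and leaving out libraries. The scripts were tested on simulated counts. Replicate libraries differed beyond counting error (chi-square per gene 8.68 to 25.0).

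All 10 genes are described, with WRN, CDKN1A, MDM2 and up to 4 genes per list by smallest p in SW48 over both guides. One gene so chosen is not reported here. Genes alike in course are from the 3 highest correlations among genes with a mean log2 CPM of at least 1. The 10 genes and the lists were chosen with earlier results of these data known, so counts over them are descriptions.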

Additional observations from a re-analysis of the deposited data

How the results depend on the processing

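In SW48 over both guides, 3 of the 10 genes passed. The count was 4 with no filter, where MYBL2 was added, 2 with limma on FPKM at either pseudocount, 1 in a fit of the line's 6 libraries alone, 0 with a replicate block, 0 with the sgWRN2 libraries left out, 1 with both of these changes, and 0 to 3 when single libraries were left out. With sgWRN2 alone in SW48 it was 5, against 3 with the replicate block and 3 to 5 without single libraries. With sgWRN3 alone it was 0, against 1 with sgWRN2 libraries left out and a replicate block. For sgWRN2 against sgWRN3 in SW48 it was 3, against 5 with DESeq2, 1 in the 6-library fit, 0 with the replicate block, 1 with limma on log2 of FPKM plus 1, and 0 to 3 without single libraries. In OVK18, sgWRN2 gave 1 with no filter and 1 with DESeq2, and sgWRN2 against sgWRN3 gave 1 with no filter, against 0 each. OVK18 over both guides, OVK18 sgWRN3 and the difference between lines stayed at 0 in every setting run, and the baseline count of 7 was 6 to 7 without single libraries, 6 with no filter or limma, and 9 with sgWRN2 libraries left out and a replicate block, where MYBL2 and RBL1 were added. For most settings the number of all genes called is not given beside these counts. The cause of these changes was not tested.

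What the letters A and B mark is not given in the sources used here. The A to B difference correlated at 0.331 to 0.413 among the sgWRN3 and sgCh2-2 groups of both lines, and at 0.351 between the sgWRN2 groups of SW48 and OVK18. Between sgWRN2 and the other guides it correlated at -0.304 to 0.0217, so the letters were not taken as pairs, and a block that treats the sgWRN2 letters like the others may not match how the libraries were made. With the replicate block, all genes called in SW48 over both guides numbered 28 against 123, and with sgWRN2 alone 265 against 437. Over both guides in SW48, 292 genes passed with no filter and 298 with DESeq2.

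Values that changed sign were all of genes that did not pass. In SW48 over both guides, RBL2 was 0.0533 with sgWRN2 left out and 0.0445 with a block as well (-0.253 to 0.0612 without single libraries), TFDP2 0.0335 and 0.0317, E2F5 -0.0308 and -0.0375 (-0.0231 to 0.220), and E2F4 -0.217 to 0.0815 without single libraries. In OVK18 over both guides, E2F7 was 0.136 and 0.136 (-0.226 to 0.0972), RBL2 0.0323 and 0.0328, E2F1 -0.146 to 0.125, E2F3 -0.0527 to 0.0238 and E2F4 -0.0131 to 0.137. E2F4 with sgWRN2 in SW48 was -0.278 to 0.0211, and RBL2 at baseline -0.00861 to 0.308.

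With 2 libraries a group and 6 residual degrees of freedom, a gene that did not pass is not shown to be unchanged.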

Other observations

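CCND2, cyclin D2, was singled out after its values were seen. In OVK18 it had counts of 29 and 9 in the sgWRN2 libraries and 0 and 0 in the sgWRN3 libraries, against 0 and 1 in the sgCh2-2 libraries. In SW48 its counts ran from 8591 to 16327 over the 6 libraries.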
